A study of Macaca mulatta with 56 samples.

Results

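SLC7A14, PGM2L1, ATP8A2, PRKAR1B, C1QTNF1 and HOOK1 are 6 genes that were lower in the amygdala of estradiol-treated old female rhesus macaques than in the amygdala of untreated ones. They are 6 of the 17807 gene identifiers in the table, and each symbol stood on 1 identifier. They were chosen by that measured difference (normalized reads of HT against OvH amygdala), so their amygdala difference is given here as a description with no test, and no test of the 6 genes below uses it. The study took messenger RNA from the amygdala, the hippocampus and the occipital and prefrontal cortices of 14 animals aged 19.4 to 23.2 years. The HT group (n = 7) had ovaries and uterus removed and received capsules of estradiol that gave a serum level of 82.1 pg/mL. The OvH group (n = 7) had the same operation and received empty capsules, with a serum level of 6.6 pg/mL. All 14 animals, controls included, ate a Western-style diet with 36% of its calories from fat, were operated on about 6 weeks after that diet began, and were studied for 30 months. No ovary-intact animals and no animals on standard chow were analysed here, so HT against OvH compares estradiol replacement with its absence on that diet.

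The 6 genes come from unrelated families. SLC7A14 belongs to the SLC7 family of amino acid transporters and sits on lysosomes, and ATP8A2 is a P4-ATPase, a flippase that moves phosphatidylserine to the cytosolic side of membranes. PGM2L1 makes glucose 1,6-bisphosphate, the cofactor of phosphoglucomutase, and is abundant in brain. PRKAR1B is a regulatory subunit that holds protein kinase A inactive until cyclic AMP binds. C1QTNF1 is a secreted protein of the C1q and tumour necrosis factor superfamily related to adiponectin, and HOOK1 links cargo to the microtubule motor dynein.

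Values are reads scaled by the authors to a common upper quartile, called normalized reads here. Libraries held 34.63 to 93.34 mega-reads (median 59.88). In the amygdala the scaled totals were 71.1 ± 4.46 mega-reads in HT and 61.4 ± 4.08 in OvH libraries (SD, n = 7 each; exact permutation test, two-sided, p = 0.0029), so fold changes there depend on the scaling. Of 77 rows with symbols of cytosolic ribosomal proteins tested in the amygdala, 64 were higher in HT and 0 lower (median log2 difference 1.23, limma), where 6.16% of all rows tested were higher. They took 5.83% to 16.0% of the normalized reads of HT libraries (median 11.6%), against 3.96% to 6.83% in OvH libraries (median 5.23%). With equal totals 61 were higher (median 1.01). With pan-neuronal markers as a covariate no row of the amygdala passed, so none of these ribosomal rows did (median 1.05). Reads of such genes can be shared with near-identical copies, and their part in the fall of the 6 genes was not tested. The amygdala columns and those of the other 3 regions may not hold the same transcript under every identifier, and a mismatch of rows was not separated from a difference between regions: 75.9% of identifiers had mean log2(value + 1) levels within 2 of each other (a 4-fold range) in the amygdala and in the mean of the other 3, whereas 97.8% did between hippocampus and the mean of both cortices. All 6 genes met that limit, with amygdala minus other regions at 0.41 for SLC7A14, 0.32 for PGM2L1, -0.17 for ATP8A2, -0.91 for PRKAR1B, -1.79 for C1QTNF1 and 0.10 for HOOK1. C1QTNF1 was the closest to the limit. Among the 40 rows next to each gene in the table, 35 to 40 met the limit for the other 5 genes but 15 for SLC7A14. The SLC7A14 row may therefore hold different transcripts in the amygdala and outside it, and that count cannot tell which side is misplaced. The amygdala columns are used here as named, and SLC7A14 values outside the amygdala are tentative. Over the 500 rows that varied most between animals, 54 of 56 libraries were most like another region of their own animal. OvH animal 30 gave both exceptions, in hippocampus and occipital cortex, and the hippocampus of OvH animal 43 matched its own animal weakly (r = 0.30). The sum of 4 choroid plexus markers reached 1466320 normalized reads in the hippocampus of HT animal 40 and 1327990 in that of OvH animal 33, against at most 49815 in the other 12 hippocampi. Hippocampus results are therefore also given without animals 30 and 43, and without animals 33 and 40, where that changes a call or a direction. In bulk tissue fewer cells of a type and less RNA per cell cannot be told apart.

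In the amygdala, 118 of 16129 rows tested were lower in HT at an adjusted p under 0.05 (0.732%) and 994 were higher (6.16%, limma with Benjamini-Hochberg adjustment). All 6 genes are among the 118 by the way they were picked, and nothing is read from that count. They stood at ranks 3 to 11 of the 118 by the size of the fall. C1QTNF1 ranked 3, PGM2L1 ranked 6, ATP8A2 ranked 7, SLC7A14 ranked 9, PRKAR1B ranked 10 and HOOK1 ranked 11. The median fall among the 118 was -0.54 on the log2 scale, and TICAM1, just below HOOK1 in that order, was at -0.74.

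Both membrane transport genes were lower in HT. In the amygdala, SLC7A14 ranged from 662 to 1308 normalized reads in HT animals (median 1004), against 1146 to 2157 in OvH animals (median 1785). Of 7 HT animals, 6 lay below every OvH animal, and the overlap came from OvH animal 32, the lowest of its group. Means were 984 ± 225 normalized reads in HT animals and 1744 ± 318 in OvH animals (SD, n = 7 each), a difference of -0.83 on the log2(value + 1) scale (SE 0.17), or 43.6% lower. ATP8A2 ranged from 602 to 1549.6 normalized reads in HT animals (median 1209), against 927 to 2472 in OvH animals (median 2289.6). OvH animal 32 stood far below the other 6 OvH animals, which lay between 1843 and 2472 and above every HT animal. The ATP8A2 means were 1131 ± 353 normalized reads in HT animals and 2059 ± 539 in OvH animals (SD, n = 7 each), a difference of -0.87 (SE 0.25), or -1.05 without animal 32.

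PGM2L1, the sugar bisphosphate synthase, ranged from 1939 to 4107 normalized reads in HT animals (median 2649), against 3019 to 6675 in OvH animals (median 5116). Again 6 HT animals lay below every OvH animal, and HT animal 39 was the highest of its group. Means were 2658 ± 732 normalized reads in HT animals and 4863 ± 1173 in OvH animals (SD, n = 7 each), a difference of -0.87 on the log2 scale (SE 0.19). Its lowest OvH value was that of animal 32, as for SLC7A14, ATP8A2 and HOOK1.

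Of the signalling genes, PRKAR1B ranged from 7686 to 20483 normalized reads in HT animals (median 15314), against 14937 to 33702 in OvH animals (median 25497). OvH animal 31 was the lowest of its group, 6 OvH animals lay above every HT animal and 3 HT animals lay below every OvH animal. Means were 15099.8 ± 4275 normalized reads in HT animals and 25269 ± 5982 in OvH animals (SD, n = 7 each), a difference of -0.76 (SE 0.21). C1QTNF1, the secreted protein, ranged from 76.1 to 268 normalized reads in HT animals (median 126), against 159.7 to 421 in OvH animals (median 277). These rest on 50 to 164 reads per HT library and 133 to 703 per OvH library, the fewest of the 6 genes. Of the HT animals, 6 lay below every OvH animal, and HT animal 42 lay inside the OvH range. The C1QTNF1 means were 144 ± 61.1 normalized reads in HT animals and 279 ± 87.7 in OvH animals (SD, n = 7 each), a difference of -0.98 (SE 0.27).

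HOOK1, the dynein adaptor, ranged from 273 to 424 normalized reads in HT animals (median 321), against 375 to 708 in OvH animals (median 529.7). The HT values formed the tightest group of the 6 genes, with a coefficient of variation of 16.7%, and 6 of 7 lay below every OvH animal. Means were 328 ± 54.8 normalized reads in HT animals and 561 ± 121 in OvH animals (SD, n = 7 each), a difference of -0.76 (SE 0.18). Mean levels of the 6 genes were 40.2% (PRKAR1B) to 48.2% (C1QTNF1) lower in HT. For each of the 6 genes all 7 HT animals lay below the OvH median, and for none did the groups separate fully. Such counts come from the values that chose the genes, and their share over all rows was not counted. HK1 and SLC7A8, which did not pass in the amygdala, also had all 7 HT animals below the OvH median, and C1QTNF5 had 5.

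**Figure D1:**
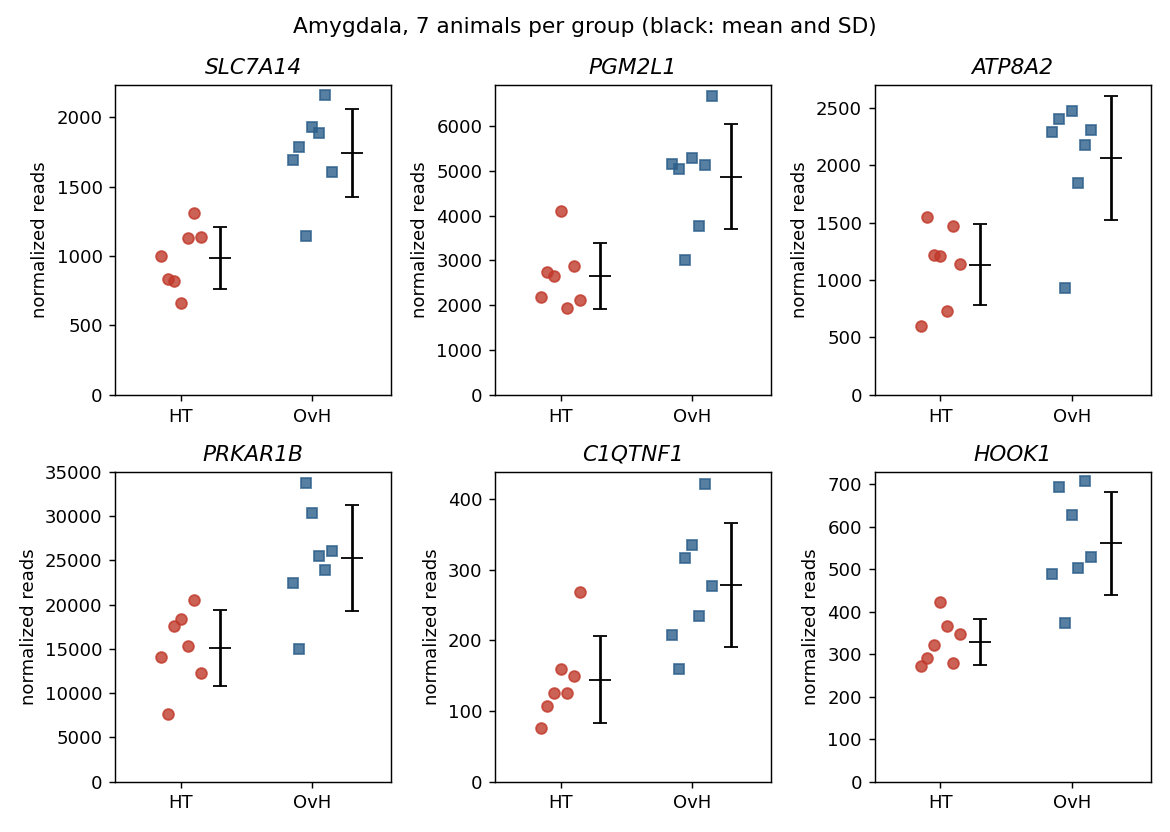
Normalized reads (vertical axes from 0) of the 6 genes in the amygdala of 7 HT animals (red circles) and 7 OvH animals (blue squares), with the group mean and SD in black. These values chose the genes. All HT animals lie below the OvH median for every gene, and the lowest OvH animal is animal 31 for PRKAR1B and C1QTNF1 and animal 32 for the other 4 genes.

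With libraries scaled to equal totals the differences of the 6 genes lay between -0.97 for HOOK1 and -1.19 for C1QTNF1, where the median over all rows was -0.20 against 0.01 with the authors' scaling. All 19 pan-neuronal markers were in the table, none was at 0 in every amygdala library, and their sum ranged from 658499 to 916956 normalized reads in HT (median 837662) and from 718240 to 1067270 in OvH (median 996881). The sum of 17 rows of oligodendrocyte markers ranged from 821623 to 1688370 in HT (median 1182460) and from 388636 to 1329490 in OvH (median 738338). MOBP stood on 2 of these rows, so not every one of the 17 listed genes was present. For both lists the groups overlapped, with the HT median below the OvH median for the pan-neuronal sum and above it for the oligodendrocyte sum. With the mean level of the pan-neuronal markers as a covariate, PRKAR1B was at -0.35 (SE 0.22) and the other 5 genes were between -0.68 and -0.95. The SEs of those 5 lay between 0.22 (SLC7A14) and 0.36 (C1QTNF1), against 0.17 and 0.27 for these 2 genes without the covariate. With oligodendrocyte markers as the covariate, SLC7A14 was at -0.58 (SE 0.17) and the other 5 were between -0.66 and -0.89 (SE from 0.21 for HOOK1 to 0.32 for C1QTNF1).

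None of the 6 genes passed the test for HT against OvH in the hippocampus, occipital cortex, prefrontal cortex or the mean of these 3 regions (log2 differences within single regions between -0.30 and 0.30). In those 4 comparisons no row of the table passed either (limma, 0% of 16317, 16138, 16286 and 16354 rows tested). At an unadjusted p under 0.05 there were 335 hippocampal, 303 occipital and 603 prefrontal rows, and 517 in the mean. edgeR called 0 rows in each single region, and DESeq2 called 12 hippocampal rows, 0 occipital rows and 6 prefrontal rows.

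SLC7A14 in the hippocampus ranged from 643 to 3382 normalized reads in HT animals (median 1768), against 871 to 2906 in OvH animals (median 1259). In occipital cortex it ranged from 322 to 1066 normalized reads in HT animals (median 657), against 445 to 919 in OvH animals (median 519). In prefrontal cortex it ranged from 379 to 1260.2 normalized reads in HT animals (median 1097), against 328 to 1693 in OvH animals (median 1126). The groups overlapped in each region, and HT animal 40 was the lowest HT animal in all 3. Over the mean of the 3 regions the log2 difference was 0.07 (SE 0.25, 95% interval -0.45 to 0.59).

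ATP8A2 in the hippocampus ranged from 827 to 3338 normalized reads in HT animals (median 1408), against 881 to 4264 in OvH animals (median 2014). In occipital cortex it ranged from 608 to 2519.7 normalized reads in HT animals (median 1531), against 1006 to 2169.9 in OvH animals (median 1048). In prefrontal cortex it ranged from 860.2 to 3194 normalized reads in HT animals (median 1774), against 725 to 3442 in OvH animals (median 2483). OvH animal 32, low in the amygdala, was also the lowest OvH animal in the hippocampus and prefrontal cortex. The mean over the 3 regions differed by -0.10 (SE 0.28, 95% interval -0.68 to 0.49), and without animals 30 and 43 by 0.12.

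PGM2L1 in the hippocampus ranged from 1595 to 10016 normalized reads in HT animals (median 4958), against 2938 to 7269 in OvH animals (median 5399.9). In occipital cortex it ranged from 777 to 2232 normalized reads in HT animals (median 1527), against 841 to 2351 in OvH animals (median 1097). In prefrontal cortex it ranged from 1579 to 4153 normalized reads in HT animals (median 3489), against 2143 to 5304 in OvH animals (median 4010.4). Hippocampal values spread widely among HT animals, and the groups overlapped in every region. Its mean over the 3 regions differed by 0.02 (SE 0.19, 95% interval -0.39 to 0.43).

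PRKAR1B in the hippocampus ranged from 28698 to 43052 normalized reads in HT animals (median 36906), against 24692 to 51603 in OvH animals (median 32801). In occipital cortex it ranged from 16678 to 41536 normalized reads in HT animals (median 34051), against 24943 to 51874 in OvH animals (median 39558). In prefrontal cortex it ranged from 27577 to 38535 normalized reads in HT animals (median 34466), against 27214 to 42928 in OvH animals (median 37552). It had the narrowest spread of the 6 genes over the 3-region mean, where it differed by -0.16 (SE 0.09, 95% interval -0.36 to 0.04), with an unadjusted p of 0.105 (limma) that did not pass after adjustment. In both cortices 6 of 7 HT animals lay below the OvH median. Within the hippocampus the difference was -0.09, or 0.02 without animals 33 and 40.

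C1QTNF1 in the hippocampus ranged from 171 to 1167 normalized reads in HT animals (median 368), against 227 to 1159 in OvH animals (median 443). In occipital cortex it ranged from 499 to 3765 normalized reads in HT animals (median 1149), against 819.5 to 1618 in OvH animals (median 1382). In prefrontal cortex it ranged from 383 to 631 normalized reads in HT animals (median 533), against 306 to 774 in OvH animals (median 521). HT animal 40 was the highest HT animal in the hippocampus and OvH animal 33 the highest OvH animal, the 2 libraries with high choroid plexus markers, whose part in these values was not tested. The 3-region mean differed by 0.00 (SE 0.18, 95% interval -0.38 to 0.38).

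HOOK1 in the hippocampus ranged from 145 to 565 normalized reads in HT animals (median 476), against 202 to 1206 in OvH animals (median 285). In occipital cortex it ranged from 263 to 719 normalized reads in HT animals (median 472), against 178 to 649 in OvH animals (median 412). In prefrontal cortex it ranged from 276 to 683 normalized reads in HT animals (median 517), against 261 to 632 in OvH animals (median 411). The highest hippocampal value was that of OvH animal 30, whose library did not match its own animal, and the hippocampal difference of -0.05 was 0.17 without animals 30 and 43. In prefrontal cortex 6 of 7 HT animals lay above the OvH median, and the 3-region mean differed by 0.16 (SE 0.20, 95% interval -0.26 to 0.58).

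**Figure D2:**
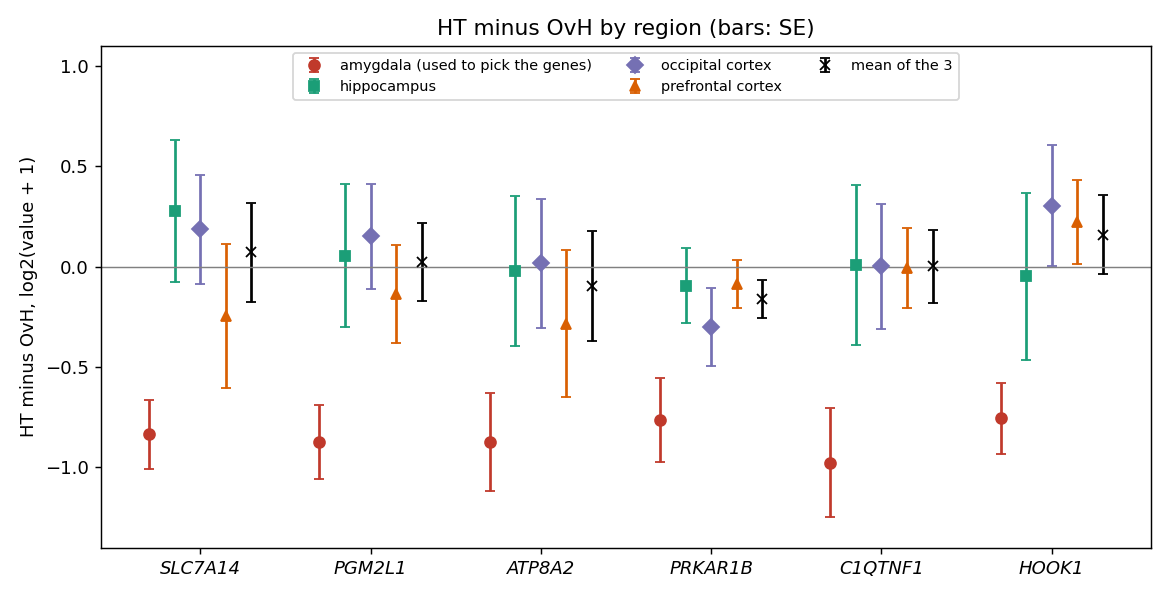
HT minus OvH on the log2(value + 1) scale (vertical axis) for the 6 genes in each region and in the mean of hippocampus, occipital and prefrontal cortex, with bars of 1 SE and 7 animals per group. The amygdala values, which chose the genes, lie between -0.76 and -0.98, and the 3-region means lie between -0.16 and 0.16.

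Whether the HT difference varied among hippocampus, occipital and prefrontal cortex was tested over all rows with the animal as a block. None of the 6 genes passed (limma F test, adjusted p = 0.9998 for each), nor did any of 16354 rows. The contrast of amygdala with the other regions was not tested, since the amygdala values chose the genes.

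The 6 genes differed in where they were abundant outside the amygdala, a comparison within animals that did not enter their choice. Of 16354 rows tested with the animal as a block, 43.4% differed between hippocampus and prefrontal cortex, 50.7% between hippocampus and occipital cortex and 47.9% between occipital and prefrontal cortex, so a call here is common. PGM2L1 was highest in the hippocampus, at 5459 ± 2448 normalized reads, against 1485 ± 528 in occipital and 3393 ± 1052 in prefrontal cortex (SD, n = 14 each). All 3 of its contrasts passed, with hippocampus minus occipital cortex at 1.82 on the log2 scale (SE 0.19, adjusted p = 2.2e-09), hippocampus minus prefrontal cortex at 0.61 (adjusted p = 0.0111) and occipital minus prefrontal cortex at -1.21 (adjusted p = 6.2e-06).

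SLC7A14, tentative in these regions, was also highest in hippocampus and lowest in occipital cortex, at 1788 ± 889 in hippocampus, 655 ± 246 in occipital and 1013 ± 423 in prefrontal cortex. Hippocampus exceeded occipital cortex by 1.37 (adjusted p = 7.2e-07) and prefrontal cortex by 0.80 (adjusted p = 0.00148). Occipital minus prefrontal cortex was -0.57 (adjusted p = 0.0174), a call that ended without the block (0.0594) and without animals 33 and 40 (0.0533). ATP8A2 averaged 1951 ± 1032 in hippocampus, 1395 ± 625 in occipital and 2247 ± 946 in prefrontal cortex. Its occipital level minus its prefrontal level was -0.67 (adjusted p = 0.00621), and hippocampus did not differ from either cortex past the threshold.

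C1QTNF1 was highest in occipital cortex, where PGM2L1 was lowest, with 515 ± 308 in hippocampus, 1351 ± 751 in occipital and 538 ± 134 in prefrontal cortex. Hippocampus minus occipital cortex was -1.45 (adjusted p = 2.3e-06) and occipital minus prefrontal cortex 1.23 (adjusted p = 4.4e-05). Hippocampus and prefrontal cortex did not differ past the threshold (-0.23, adjusted p = 0.423), but did without animals 33 and 40 (-0.46, adjusted p = 0.0392). PRKAR1B was nearly level, at 36975 ± 8989 in hippocampus, 36367 ± 8835 in occipital and 35324 ± 5121 in prefrontal cortex. Its 3 contrasts lay between 0.01 and 0.04, and their 95% intervals lay between -0.24 and 0.29. HOOK1 averaged 396 ± 272 in hippocampus, 428 ± 166 in occipital and 476 ± 124 in prefrontal cortex with no contrast past the threshold. Its hippocampus minus prefrontal contrast of -0.45 (adjusted p = 0.1002) passed without animals 30 and 43 (-0.56, adjusted p = 0.0169), and without animal 30 both hippocampal contrasts passed (adjusted p = 0.0106 against prefrontal and 0.0443 against occipital cortex). The hippocampus minus occipital contrast of ATP8A2 (0.44, adjusted p = 0.0638) passed without animal 32, 33, 39 or 42 (adjusted p from 0.0273 to 0.0463).

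**Figure D3:**
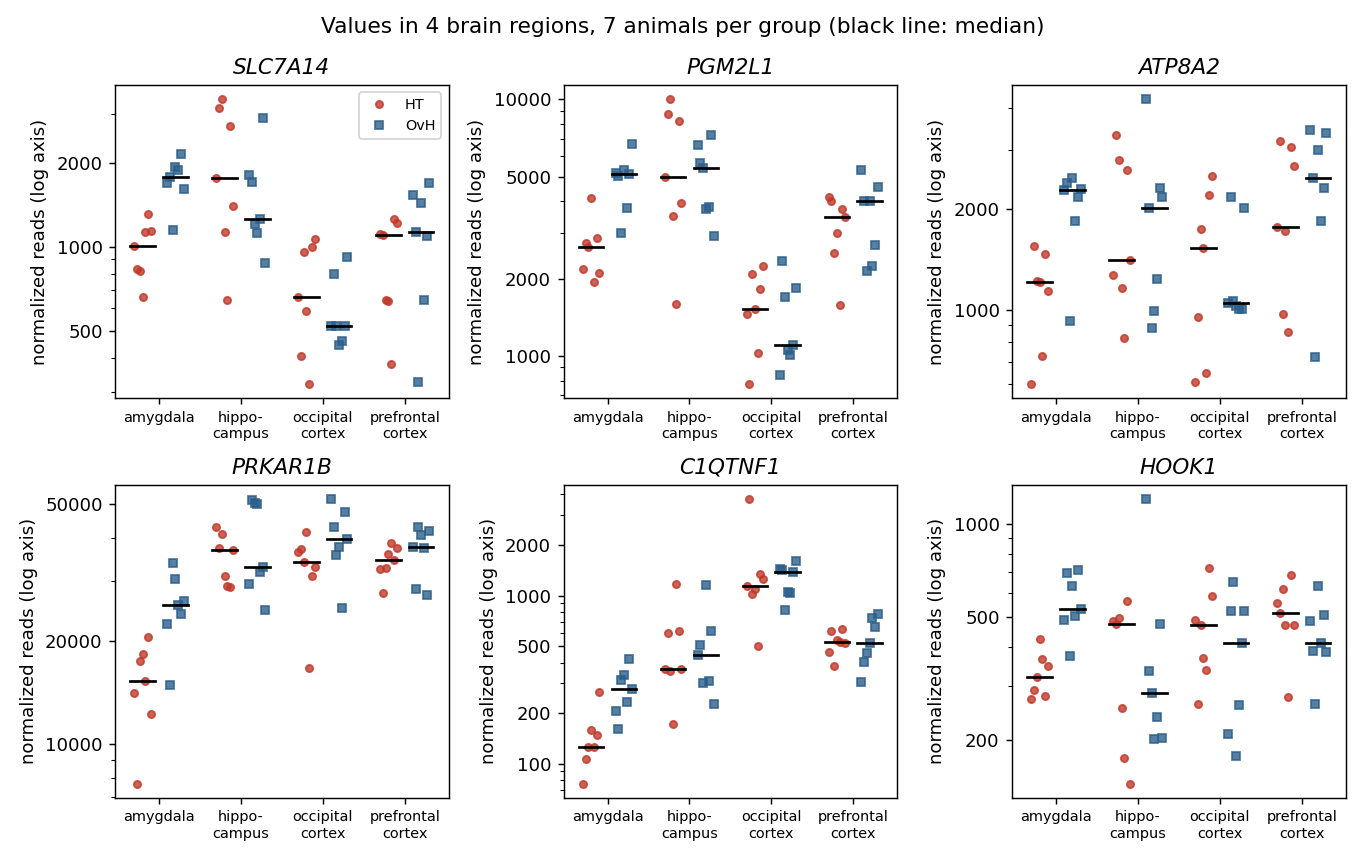
Normalized reads (log axes) of the 6 genes in 4 regions, with HT animals as red circles left of OvH animals as blue squares, 7 per group, and the group median as a black line. HT lies mostly below OvH in the amygdala and the groups overlap in the other 3 regions, where PGM2L1 is lowest and C1QTNF1 highest in occipital cortex. SLC7A14 outside the amygdala is tentative.

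Within the amygdala the 6 genes were compared animal by animal after removing each group's mean, which takes out the HT difference that chose them. Permutation tests (100000 resamples, two-sided) over 81 relations were adjusted together. None of 15 pairs of genes passed by Pearson's or Spearman's test, with r between -0.31 and 0.72 and a median of 0.13 over 14 animals. The strongest pair was PGM2L1 with ATP8A2 (r = 0.72, permutation p = 0.00521, adjusted 0.141; rho = 0.68, p = 0.0107, adjusted 0.217), at 0.69 without the 2 animals farthest from the median of PGM2L1. With equal totals this was the pair that passed (r = 0.78, adjusted permutation p = 0.0498; rho = 0.80, adjusted 0.0223).

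Correlation between animals cannot show whether neurons carry a transcript, so the label of neuronal genes was not tested. Each gene was compared with the mean level of 19 pan-neuronal markers. None of the 6 genes followed it past the threshold by either test, with r from -0.17 for SLC7A14 to 0.65 for PRKAR1B (permutation p = 0.0136, adjusted 0.184; rho = 0.82, adjusted 0.0518). PRKAR1B followed the 12 inhibitory neuron markers (rho = 0.85, permutation p = 0.00054, adjusted 0.0437; r = 0.77, permutation p = 0.00297, adjusted 0.120; r = 0.86 without the 2 animals farthest from its median). That correlation was 0.87 among HT and 0.56 among OvH animals. With the authors' scaling only Spearman's test of it passed. PRKAR1B with the excitatory neuron markers had r = 0.57 (permutation p = 0.0340, adjusted 0.306) and rho = 0.63 (permutation p = 0.0191, adjusted 0.309). Whether PRKAR1B followed any neuronal list more closely than another was not tested. SLC7A14 had a negative r with the oligodendrocyte markers (r = -0.70, adjusted permutation p = 0.169; rho = -0.57, adjusted 0.451). C1QTNF1 had its highest r with endothelial (0.66) and mural and meningeal (0.65) markers and 0.03 with pan-neuronal markers, none past the threshold. The cells that carried each transcript were not measured, and the genes are named here by their amygdala fall.

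**Figure D4:**
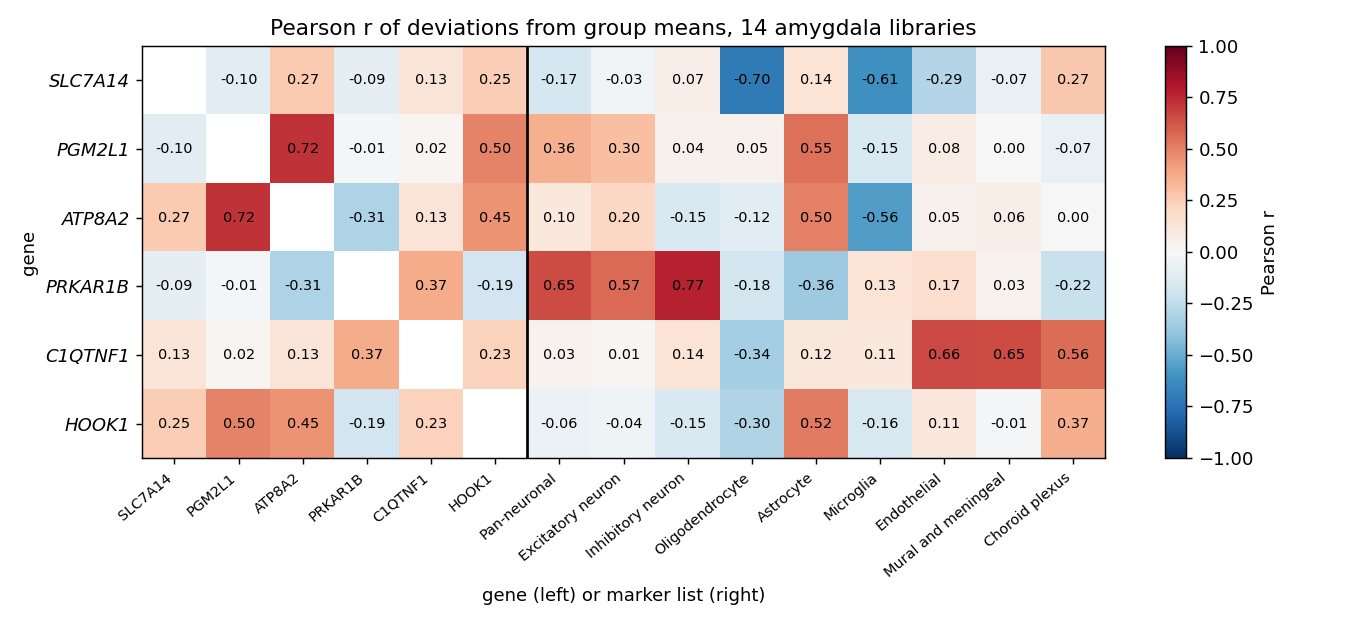
Pearson r, printed in each cell and coloured from -1 (blue) to 1 (red), between deviations from the group mean of each gene (rows) and those of the other genes or the mean of a marker list (columns), over 14 amygdala libraries. PRKAR1B with inhibitory neuron markers (0.77) and PGM2L1 with ATP8A2 (0.72) are the highest values, and no cell passed the adjusted Pearson test.

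In none of the 6 genes did the amygdala level follow the same animal's level elsewhere past the threshold, by either test. The highest r was that of ATP8A2. Its deviations in amygdala and in the mean of the other 3 regions had r = 0.83 (permutation p = 0.00105, adjusted 0.0850; rho = 0.75, adjusted 0.134), with 0.85 among HT and 0.82 among OvH animals and 0.82 without the 2 animals farthest from the median. For the other 5 genes r lay between -0.28 for HOOK1 and 0.32 for PGM2L1. Correlation with the reads per library lay between -0.20 and 0.37 for the 6 genes.

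As a description over the same 14 libraries, the gene most like each of the 6 was found among 12657 with a mean of at least 100. ARHGAP6 was most like SLC7A14 (r = 0.90), followed by OTOF and CACNG4. SLIT2 was most like PGM2L1 (0.91), followed by ZC3H8 and ELAVL2. TAB3 was most like ATP8A2 (0.95), followed by RCC2 and CPEB4. SLC45A1 was most like PRKAR1B (0.98), followed by RPUSD1 and TMEM198. VCL was most like C1QTNF1 (0.91), followed by LYVE1 and SP2, and GALNT1 was most like HOOK1 (0.91), followed by TNKS2 and GOLM2. The r values among the 6 genes themselves (median 0.13 over 15 pairs) limit the mean r that any gene can reach with all 6. The size of that mean is therefore not read as a result. The highest mean r over the 6 was 0.49, for FAM168B, and GEMIN4, MIEF1, SLC30A1, ARNT2, UPF1, COCH, ZNF407, SERINC3 and VCPIP1 followed down to 0.46.

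Of 147 relatives and partners of the 6 genes tested in the amygdala, 6 were higher (4.08%) and 1 lower (0.68%), near the shares of 6.16% and 0.732% over all rows. Medians below are HT minus OvH on the log2 scale, beside 0.01 over all 16129 rows. Of 21 SLC7 and lysosomal amino acid transporters tested, 0 were higher and 0 lower (median -0.12). Nearest were SLC7A9, at 442 ± 233 in HT and 227 ± 170.2 in OvH (log2 difference 1.09, adjusted p = 0.102), and SLC7A8 (-0.44, adjusted p = 0.113). Of 24 phosphoglucomutase and glycogen enzymes none passed (median -0.02). HK1, a hexokinase, was at -0.41 (adjusted p = 0.0886) and PYGB, the brain glycogen phosphorylase, at -0.35 (adjusted p = 0.0959), and both passed with equal totals, edgeR and DESeq2. Of 19 P4-ATPase flippases and partners none passed (median -0.08), with ATP8B3 at 0.75 (adjusted p = 0.250) and XKR8, a scramblase, at 0.47 (adjusted p = 0.268). Calls appeared for SLC7A8 with equal totals (0.0268) and without animal 41 (0.0498), for HK1 without animal 41 (0.0343), and for SLC7A9 (0.0107) and ATP8B3 (0.0406) without animal 32.

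Of 33 protein kinase A genes 1 was higher and 0 lower (median -0.12). PKIB, an inhibitor of the kinase, rose to 1500.2 ± 222 in HT animals, against 943 ± 125 in OvH animals (0.67, SE 0.13, adjusted p = 0.00823). All 7 HT animals lay above every OvH animal, as they also did for SPDL1 below (lowest HT 3767, highest OvH 3753). The share of all rows that separate so was not counted. With oligodendrocyte markers as a covariate the adjusted p of PKIB was 0.0562. Of 14 C1q and tumour necrosis factor relatives none passed (median -0.07), with C1QTNF4 at -0.91 (adjusted p = 0.211) and C1QTNF5 at -0.38 (adjusted p = 0.279). Of 36 genes of the Hook complex, dynein and dynactin 5 were higher and 1 lower (median 0.03), where 6.16% of all rows were higher and 0.732% lower. DYNLL1, a dynein light chain, rose to 138372 ± 41201 in HT animals, against 53950.1 ± 16938 in OvH animals (1.35, adjusted p = 0.00750). SPDL1, a dynein adaptor of mitosis, was higher by 0.72 (adjusted p = 0.00899), DYNLRB2, another dynein chain, by 0.79 (adjusted p = 0.0199) and DCTN6, a dynactin subunit, by 0.59 (adjusted p = 0.0205). TRAK2 (0.61, adjusted p = 0.0398) and DCTN1 (-0.51, adjusted p = 0.0337), the largest dynactin subunit, were singled out after their values were seen. The calls of SPDL1, DYNLRB2 and DCTN6 ended with oligodendrocyte markers as a covariate (adjusted p = 0.0825, 0.129 and 0.0876), that of DCTN6 with equal totals (0.0686), and those of DYNLRB2 and DCTN6 without animal 33 (0.0536 and 0.0541).

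The closest paralogs, also picked after their values were seen, did not pass. HOOK3 was at 0.33 (adjusted p = 0.368) and HOOK2 at -0.02 (adjusted p = 0.971), against -0.76 for HOOK1. PRKAR1A was at -0.34 (adjusted p = 0.150), against -0.76 for PRKAR1B. ATP8A1 was at -0.19 (adjusted p = 0.575) and PGM2 at 0.16 (adjusted p = 0.640), against -0.87 for both ATP8A2 and PGM2L1. Whether a paralog differed from its partner was not tested.

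Over 9 lists of cell type markers in the amygdala, 6 of 106 marker rows tested were higher (5.66%) and 2 lower (1.89%), against 6.16% and 0.732% of all rows. Of the lists, 0 of 19 pan-neuronal markers were higher and 2 were lower (median -0.32). They were SYP, a synaptic vesicle protein, at 30934 ± 8199.5 in HT and 50984 ± 14856 in OvH (-0.71, adjusted p = 0.0397), and DNM1, the neuronal dynamin, at -0.66 (adjusted p = 0.0439). Both calls ended with no filter on low rows (0.0606 and 0.0634) and when any of 9 animals was left out. No excitatory marker of 10 passed (median -0.19), with TBR1 at -0.45 (adjusted p = 0.178, and 0.0414 with equal totals) and NEUROD2 at -0.37 (adjusted p = 0.343). Of 12 inhibitory markers 1 was higher (median -0.19), the neuropeptide gene VIP (0.80, adjusted p = 0.0333), a call that ended with equal totals (0.0721), edgeR (0.0928), no filter (0.0510) and when any of 8 animals was left out. Of 17 rows of oligodendrocyte markers 3 were higher and 0 lower (median 0.44). They were MOBP at 1.46 (adjusted p = 0.0185), GJB1 at 1.14 (adjusted p = 0.0193) and MBP at 1.14 (adjusted p = 0.0297). The MBP call ended with edgeR (0.0663), with no filter (0.0968) and when any of 7 animals was left out. MOBP stood on 2 of the 17 rows, and its other row did not pass. S100B was the astrocyte marker of 12 that was higher (1.05, adjusted p = 0.0146; list median -0.08) and AIF1 the microglial one of 11 (1.06, adjusted p = 0.00690; list median 0.08). GJB1 did not pass without animal 33 (0.0514). With oligodendrocyte markers as a covariate the calls of DNM1, VIP, MOBP, GJB1, MBP and S100B ended (adjusted p from 0.111 to 0.2355). MOBP, GJB1 and MBP belong to the list whose mean is that covariate, so the loss of their calls is built into the adjustment.

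None of 10 endothelial markers passed (median -0.29), with CLDN5 at -0.69 (adjusted p = 0.0982; past the threshold with equal totals, edgeR and DESeq2, and without animal 43) and FLT1 at -0.67 (adjusted p = 0.140). None of 9 mural and meningeal markers passed (median 0.36), with RGS5 at -0.40 and LUM at 0.63, and none of 6 choroid plexus markers (median -0.16), with KCNJ13 at 1.15 and SLC4A5 at 0.30. With the mean of the pan-neuronal markers as a covariate no row of the amygdala passed, higher or lower. The part of cell composition in the fall of the 6 genes was not tested. In the mean of the other 3 regions 0 members of the pathway and marker lists passed in either direction.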

How the data were processed

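Messenger RNA of 4 brain regions of 14 macaques gave 56 stranded libraries, in 8 groups of 7 taken from the labels, and libraries with the same animal number come from 1 animal, so the labels pair the regions. The deposited values are a signal made by the authors: reads per gene scaled to a common upper quartile (2818.94 in every library). Per the submitters' processing notes, FastQC 0.1.1.2, Trimmomatic, STAR 2.7.3a, edgeR 3.28.0 and the build Mmul_10 were used; the read counter and its strand setting are not given in the sources used here. Undoing the scaling gave whole reads for 100% of values (within 0.01 reads), which served the count tests and the depths of 34.63 to 93.34 mega-reads.

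The main test was limma 3.58.1 in R 4.3.3, fitted to log2(value + 1) with a trend in the variance, within a region, on rows with a mean of at least 10, two-sided, with Benjamini-Hochberg adjustment over all rows and a threshold of 0.05. A fold change on that scale understates the change of low genes. Region contrasts had the animal as a fixed block, and 1 mean per animal was used over the 3 regions outside the amygdala. Alternatives were a pseudocount of 10, no filter, a filter of 100, equal totals, edgeR 4.0.16 and DESeq2 1.42.0 on the recovered reads, marker covariates, and leaving out each animal; leaving out animals 30 and 43, or 33 and 40, was added after seeing the data. The limma fit of HT against OvH in the amygdala was tested on simulated data, and the other fits were not. Correlations used Python 3.11.15 and NumPy 2.4.6.

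The 6 genes, the 6 pathway lists and the 9 marker lists, and the ribosomal protein symbols, were chosen with earlier results of these data known. Named genes were all 6, the up to 4 past the threshold with the smallest p in each list or otherwise the first 2, and the 3 genes most alike in pattern; others are said to be chosen after their values. Symbols were paired with 15123 of 17807 identifiers. Animals are the replicates, and p-values of HT against OvH measure the spread between them. In the region contrasts, with the animal as a fixed block, p-values measure the spread left within animals. The test of the HT difference among the 3 regions had the animal as a random block. No genome of the build was used, so no positions are given.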

Additional observations from a re-analysis of the deposited data

Results flagged for a closer look

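In 4 of 48 groups of 7 libraries (6 genes, 4 regions, 2 treatments) the lowest animal stood farther from the others on the log2(value + 1) scale than Dixon's 95% limit allows; chance flags about 1 in 20 groups. ATP8A2 in the amygdala of OvH animal 32 was at 927.3 normalized reads, with the next OvH animal at 1842.7. ATP8A2 in the prefrontal cortex of the same animal was at 725.4, with the next at 1839. HOOK1 in the prefrontal cortex of HT animal 40 was at 276.4, with the next at 470.2. PRKAR1B in the occipital cortex of HT animal 40 was at 16680 (next 30841). On the normalized reads themselves 6 groups passed the limit: of these 4, ATP8A2 in the amygdala and PRKAR1B did, and the others were the highest values of C1QTNF1 in the occipital cortex of HT animal 37 (3765, next 1354), C1QTNF1 in the hippocampus of OvH animal 33 (1159, next 618), and ATP8A2 (4264, next 2319.9) and HOOK1 (1206, next 475) in the hippocampus of OvH animal 30. Animal 32 was the lowest OvH animal in the amygdala for 4 of the 6 genes, and its mean deviation from the OvH means over the 6 was -0.36 on the log2 scale; HT animal 36 had the same mean deviation, -0.36, from the HT means, was the lowest HT animal for 3 genes, and met no such limit.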

How the results depend on the processing

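The counts over all rows depended on the scaling and the model. The 118 rows lower in HT amygdala became 1013 with equal totals, 343 with edgeR, 450 with DESeq2, 29 with oligodendrocyte markers as a covariate and 0 with pan-neuronal ones, and 14 to 733 when animals were left out in turn. The 994 higher rows became 618, and 328 and 0 with those covariates, and 534 to 1629 without 1 animal; edgeR and DESeq2 gave counts within 1.5 times. The counts of 0 elsewhere became 1 in the hippocampus with equal totals and 12 with DESeq2, and 1 in prefrontal cortex with a pseudocount of 10 and 6 with DESeq2. Without 1 animal they were 0 to 1 in occipital cortex, in prefrontal cortex and in the 3-region mean, where the replicate block (animal as a random block over 42 libraries) gave 2. The block's absence ended the SLC7A14 call between both cortices and changed no other call of the 6 genes. With equal totals 1 pair of genes was correlated.

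Small untested or uncalled differences turned sign. With equal totals ATP8A2 in the hippocampus was at 0.0046, and PRKAR1B was at -0.0261 for hippocampus minus prefrontal, -0.0051 for hippocampus minus occipital and -0.0210 for occipital minus prefrontal cortex. Without animals 30 and 43 ATP8A2 was at 0.30 in the hippocampus and 0.12 in the 3-region mean, C1QTNF1 at -0.19 and -0.0343, HOOK1 at 0.17 in the hippocampus and PRKAR1B at -0.0216 for occipital minus prefrontal cortex. Without animals 33 and 40 ATP8A2 was at 0.0203 in the hippocampus and 0.0402 in the mean, and PRKAR1B at 0.0231 in the hippocampus and -0.0631 for hippocampus minus occipital cortex. KCNJ13 in the amygdala was at -0.81 with pan-neuronal markers as a covariate. Without 1 animal the 3-region mean ranged from -0.0396 to 0.27 for SLC7A14, -0.0508 to 0.20 for PGM2L1, -0.25 to 0.0769 for ATP8A2 and -0.13 to 0.0833 for C1QTNF1. The hippocampus ranged from -0.11 to 0.33 for PGM2L1, -0.18 to 0.20 for ATP8A2, -0.22 to 0.24 for C1QTNF1 and -0.18 to 0.25 for HOOK1. Occipital cortex ranged from -0.15 to 0.20 for ATP8A2 and -0.27 to 0.22 for C1QTNF1, and prefrontal cortex from -0.25 to 0.0238 for PGM2L1 and -0.13 to 0.0890 for C1QTNF1. PRKAR1B ranged from -0.0209 to 0.10 for hippocampus minus prefrontal cortex, -0.0257 to 0.10 for hippocampus minus occipital cortex and -0.0521 to 0.10 for occipital minus prefrontal cortex. The causes were not tested. Outside the amygdala the 95% intervals of the HT differences limit what could be detected, and HOOK1 rests on the fewest reads there (from 101 per library).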
